A study of Canis lupus familiaris with 16 samples.

Results

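The 10 genes of interleukin-6 (IL-6) family signalling described here, in canine liver cancer cells given a kinase inhibitor, are the ligands IL6, IL11 and LIF, the receptors IL6R, IL6ST, LIFR and OSMR, the transcription factor STAT3, the feedback inhibitor SOCS3 and the secreted glycoprotein LRG1. They are 10 of 39543 gene symbols in the count tables, and each was matched by its symbol. The 10 were selected on their drug-against-DMSO values in these same libraries, with the decrease of LRG1 and the increase of IL11 already known. Values of sorafenib minus DMSO and toceranib minus DMSO are therefore given for them as a description that supports nothing further.

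The 16 RNA-seq libraries come from 4 cell lines, KU-cHCC-001, -002, -004 and -005, each established from a hepatic tumour of a dog. Every line received 4 treatments of 24 h, with 1 library each: sorafenib at 30 µM, toceranib at 15 µM, dimethyl sulfoxide (DMSO) as the vehicle control of sorafenib, and Dulbecco's phosphate-buffered saline (DPBS) as that of toceranib. No transgene or deletion is named for any group, and all cells grew in Advanced DMEM with fetal bovine serum and N-acetyl-L-cysteine. Sorafenib inhibits several protein kinases, among them RAF and VEGF receptors, and toceranib inhibits receptor tyrosine kinases such as KIT. The labels name no separate cultures or days, so the 4 lines are the replicates. A p-value sets a treatment difference against the spread that remains between these libraries after line differences are removed.

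Cytokines of the IL-6 family signal through receptor complexes that contain the shared chain gp130, the product of IL6ST, joined by a partner that recognises the ligand. Receptor-bound JAK kinases then phosphorylate STAT3, which enters the nucleus and induces target genes, among them SOCS3, whose protein shuts the receptor off again. In liver cells this route drives the acute phase response, and LRG1 is one of the secreted proteins it induces. IL-6 binds a complex of IL6R with gp130, IL-11 one of IL11RA with gp130, and LIF one of LIFR with gp130, while OSMR serves oncostatin M.

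Levels are given in CPM: each gene's count is divided by the size of its library, as normalised by TMM (a scaling that discounts a few very abundant genes), and set to a common total. They compare libraries for 1 gene and not different genes, since transcript length is not taken into account. In bulk RNA, fewer cells expressing a gene and less RNA per cell cannot be told apart. Both drugs are set against the same DMSO library of a line, so a high or low DMSO value enters both ratios. Values by line are listed by line number, from KU-cHCC-001 to KU-cHCC-005.

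Libraries held 12008366 to 21943572 counts. Some stood apart from their labels, and this touches every comparison with DPBS and part of those with toceranib. Over 9703 genes, the median absolute log2 difference was 0.0740 between the DPBS libraries labelled 002 and 005 and 0.0778 between those labelled 001 and 004. The sorafenib libraries differed from the DMSO library of their own line by 0.316 to 0.446. For all 4 this was the nearest DMSO library. Those labelled 002, 004 and 005 differed less from each other, by 0.322 to 0.328. The DPBS libraries labelled 001, 002 and 005 and the toceranib library labelled 002 were instead nearest to the DMSO library of KU-cHCC-004. Of the toceranib libraries, those labelled 004 and 005 differed by 0.209 from each other, that labelled 005 by 0.211 from the DPBS library labelled 002, and that labelled 002 by 0.261 from the DPBS library labelled 004. Their differences from the DMSO libraries of their own lines were 0.317, 0.404 and 0.512 for 004, 005 and 002, so their line labels are in doubt as well. Of 12 mesenchymal markers, 10 reached 5 CPM in the DPBS libraries labelled 002 and 005 and in the toceranib library labelled 005, and 8 in that labelled 004, against 3 to 5 in every other library. Their summed level was 2080 to 13320 CPM in the DMSO group, 2451 to 9945 CPM under sorafenib, 1922 to 9309 CPM under toceranib and 2024 to 4062 CPM in the DPBS group. The collagen gene COL3A1 was at 0 in all DMSO and sorafenib libraries. The leukocyte markers PTPRC, CSF1R and CD3E were at or below 0.44 CPM in every library. Set against the hepatocellular label, 9 of 12 hepatocyte markers were in the tables: HNF4A reached 118.6 CPM and APOB, an apolipoprotein made by the liver, ran from 0.084 CPM with toceranib in KU-cHCC-001 to 167 CPM in the DPBS library labelled 005, but ALB reached at most 0.42 CPM, TTR 0.24 CPM and SERPINA1 was at 0 in all 16 libraries.

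LRG1 was far lower with sorafenib in every line, IL11 and LIFR were higher in every line, and SOCS3 was lower in 2 lines and higher in the other 2. With toceranib none of the 10 genes moved in 1 direction in all 4 lines. The plot of CPM by library shows all 10 genes.

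**Figure D1:**
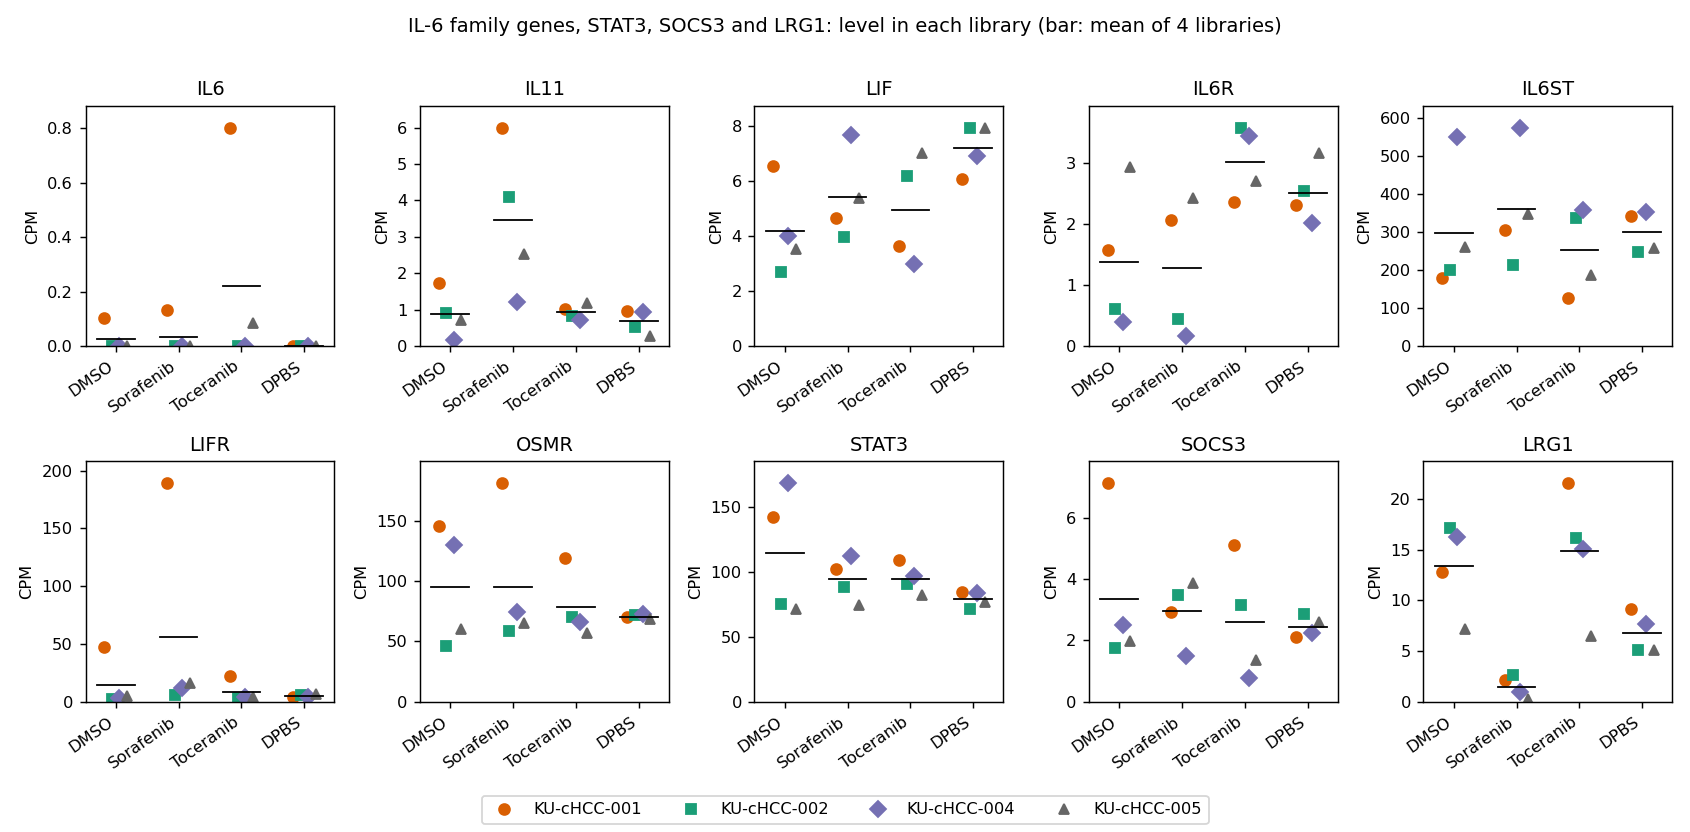
Level of each of the 10 genes in CPM (vertical axis, from 0, scaled to each gene) in the 16 libraries, by treatment (horizontal axis); each symbol is 1 library of a line by its label and each bar the mean of 4. LRG1 lies at 0.207 to 2.64 CPM with sorafenib, below all DMSO libraries (7.13 to 17.2 CPM), while LIFR in KU-cHCC-001 stands above the other lines in every treatment except DPBS.

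Among the ligands, IL6 was almost undetected. KU-cHCC-001 gave 2 counts with DMSO, 3 with sorafenib and 19 with toceranib, the last of which is 0.802 CPM. The toceranib library of KU-cHCC-005 gave 1 count, and the other 12 libraries gave 0, which allows up to 0.1495 to 0.1808 CPM in them (3 counts). In KU-cHCC-001 the toceranib to DMSO ratio of IL6 was 7.66, with an exact 95% counting interval of 1.85 to 67.8. That interval, like all others here, covers counting error only, and 1 library per arm in 1 line gives no replicate check. IL6 did not pass the filter on low counts and entered no fit, so 9 of the 10 genes were fitted.

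IL11, a cytokine linked to fibrosis and tumour growth, was low with DMSO, at 1.73, 0.904, 0.170 and 0.719 CPM (33, 15, 3 and 13 counts). With sorafenib it stood at 6.00, 4.09, 1.22 and 2.54 CPM (136, 82, 23 and 49 counts). Every line was thus higher with sorafenib, although the groups overlap, because KU-cHCC-001 with DMSO lay above KU-cHCC-004 with sorafenib. The sorafenib to DMSO ratios of IL11 were 3.47, 4.52, 7.19 and 3.53. The third of these rests on 3 DMSO counts, with a counting interval of 2.17 to 37.4, and the lowest bound among the other lines was 1.89. The fitted log2 fold change of IL11 was 2.002 ± 0.42 (SE).

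Toceranib left IL11 at 1.01, 0.835, 0.709 and 1.19 CPM, and DPBS at 0.966, 0.533, 0.947 and 0.278 CPM. IL11 was lower than with DMSO in KU-cHCC-001 and KU-cHCC-002 and higher in KU-cHCC-004 and KU-cHCC-005, and its toceranib minus DMSO log2 fold change was 0.34 ± 0.45. Without the toceranib libraries labelled 004 and 005 it was -0.42. By the mean of 4 lines, IL11 was highest with sorafenib (3.46 ± 2.06 CPM, SD, n = 4). The means with toceranib (0.936 ± 0.209), DMSO (0.881 ± 0.646) and DPBS (0.681 ± 0.335) followed, with overlapping ranges.

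LIF, which signals through LIFR and gp130 and is known for maintaining stem cells, stood at 6.55, 2.71, 4.02 and 3.54 CPM with DMSO. With sorafenib its levels were 4.67, 3.99, 7.70 and 5.38 CPM, lower in KU-cHCC-001 and higher in the other 3 lines. With toceranib they were 3.63, 6.20, 2.998 and 7.04 CPM, lower in KU-cHCC-001 and KU-cHCC-004. LIF thus had no common direction with either drug, and the log2 fold changes were 0.36 ± 0.40 for sorafenib and 0.26 ± 0.41 for toceranib. DPBS libraries held the highest mean of LIF, 7.22 ± 0.907 CPM (SD, n = 4), against 4.21 ± 1.66 CPM with DMSO.

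Of the receptors, LIFR had the largest change with sorafenib. It stood at 47.7, 1.87, 3.22 and 4.98 CPM with DMSO and at 189, 5.93, 11.3 and 15.7 CPM with sorafenib. The line KU-cHCC-001 lay far above the others in both groups, so the groups overlap, yet the ratios were close: 3.97, 3.17, 3.51 and 3.15. On the log2(CPM + 0.5) scale the differences of LIFR ran from 1.44 to 1.98 (median 1.61, SD 0.23 over 4 lines), and the fitted log2 fold change was 1.77 ± 0.31.

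LIFR did not share a direction with toceranib, where it measured 22.4, 3.28, 3.87 and 4.15 CPM. Its ratios to DMSO were 0.470 (counting interval 0.422 to 0.524) in KU-cHCC-001, 1.75 (1.11 to 2.82), 1.20 (0.835 to 1.73) and 0.835 (0.577 to 1.19). Only in the first 2 lines does the counting interval exclude a ratio of 1, and those lines moved in opposite directions. The DPBS libraries ranged from 4.20 to 6.11 CPM, and the one labelled KU-cHCC-001, at 4.24 CPM, lacked the high LIFR of that line's other 3 libraries.

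IL6R, the chain that confers IL-6 binding, was at 1.57, 0.603, 0.396 and 2.93 CPM with DMSO and 2.07, 0.448, 0.159 and 2.43 CPM with sorafenib. The sorafenib library of KU-cHCC-004 held 3 counts, a ratio of 0.402 with a counting interval of 0.0671 to 1.76. Toceranib libraries held 2.37, 3.58, 3.43 and 2.71 CPM. The low DMSO levels of KU-cHCC-002 and KU-cHCC-004 were thus absent with toceranib, at ratios of 5.93 (3.01 to 13) and 8.67 (3.97 to 22.4), while KU-cHCC-005 gave 0.925.

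The log2 fold change of IL6R was 1.68 ± 0.65 for toceranib and -0.17 ± 0.62 for sorafenib. DPBS libraries, with no drug, held 2.31, 2.55, 2.01 and 3.17 CPM of IL6R. Their mean, 2.51 ± 0.490 CPM (SD, n = 4), stood beside 3.02 ± 0.579 CPM with toceranib, and the ranges of both groups overlap. Beside the toceranib value stand the library distances and mesenchymal markers given above, and their part in it was not tested.

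IL6ST, the shared gp130 chain, ranged from 179 to 551 CPM with DMSO (179, 201, 551 and 260 CPM). It measured 306, 212, 574 and 347 CPM with sorafenib, higher in 4 of 4 lines, with ratios of 1.71, 1.06, 1.04 and 1.34. Toceranib libraries held 126, 337, 358 and 187 CPM, lower in 3 lines and higher in KU-cHCC-002. The log2 fold changes, 0.34 ± 0.28 with sorafenib and -0.17 ± 0.28 with toceranib, were small beside the gap between lines. With DMSO, KU-cHCC-004 was highest in IL6ST, and its mean over the 3 treatments without DPBS (494 ± 119 CPM) stood above the next line, KU-cHCC-005 (265 ± 80.0 CPM), by more than either SD. KU-cHCC-005, KU-cHCC-002 and KU-cHCC-001 did not differ beyond that spread.

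OSMR, the oncostatin M receptor chain, was at 146, 46.1, 130 and 60.3 CPM with DMSO, 182, 59.1, 74.5 and 65.3 CPM with sorafenib and 119, 70.5, 66.3 and 57.1 CPM with toceranib. KU-cHCC-004 stood out, with sorafenib and toceranib ratios of 0.572 and 0.509, while KU-cHCC-002 was higher with both drugs, at 1.28 and 1.53. The fitted log2 fold changes of OSMR were -0.05 ± 0.24 and -0.20 ± 0.24. All 4 DPBS libraries lay within 68.3 to 72.6 CPM, without the range of 46.1 to 146 CPM seen among the lines with DMSO.

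STAT3, the transcription factor downstream of gp130, measured 142, 74.9, 168 and 70.9 CPM with DMSO. It stood at 102, 87.9, 112 and 74.6 CPM with sorafenib and at 109, 90.4, 96.6 and 82.4 CPM with toceranib. The 2 lines with the most STAT3 mRNA under DMSO, KU-cHCC-001 and KU-cHCC-004, had ratios of 0.719 and 0.666 with sorafenib and 0.768 and 0.575 with toceranib. KU-cHCC-002 and KU-cHCC-005 had 1.17 and 1.05 with sorafenib and 1.21 and 1.16 with toceranib. The lines thus lay closer together with either drug than with DMSO. The DPBS libraries, with no drug, lay closer still, within 71.2 to 84.3 CPM. The log2 fold changes were -0.23 ± 0.19 for sorafenib and -0.19 ± 0.19 for toceranib. These values concern STAT3 mRNA. Phosphorylation of the protein, on which its activity depends, is not measured by RNA-seq.

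SOCS3, a direct STAT3 target that binds gp130 and blocks the JAK kinases, was at 7.13, 1.75, 2.49 and 1.99 CPM with DMSO. With sorafenib it measured 2.91, 3.49, 1.49 and 3.88 CPM. The ratio was below 1 in KU-cHCC-001 (0.408, counting interval 0.299 to 0.552) and KU-cHCC-004 (0.597, 0.358 to 0.981). It was above 1 in KU-cHCC-002 (2.0, 1.28 to 3.19) and KU-cHCC-005 (1.95, 1.29 to 2.99). None of these 4 intervals includes 1, and the fitted log2 fold change over the lines was -0.05 ± 0.48.

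Toceranib libraries held 5.11, 3.16, 0.763 and 1.36 CPM of SOCS3, lower than with DMSO in 3 lines and higher in KU-cHCC-002. The log2 fold change was -0.46 ± 0.48. The ratio in KU-cHCC-004, 0.307 (0.155 to 0.570), was the lowest and rests on 14 counts with toceranib. DPBS libraries held 2.09 to 2.85 CPM of SOCS3, and none of them showed the 7.13 CPM of KU-cHCC-001 with DMSO.

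LRG1, leucine-rich alpha-2-glycoprotein 1, is an acute phase protein of the liver that also modifies TGF-beta signalling in blood vessels. It measured 12.8, 17.2, 16.3 and 7.13 CPM with DMSO (245, 285, 288 and 129 counts). Sorafenib libraries held 2.12, 2.64, 0.955 and 0.207 CPM (48, 53, 18 and 4 counts). All 4 lay below every DMSO library, and LRG1 was chosen with this decrease known. How many of all genes show such a gap was not counted.

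The sorafenib to DMSO ratios of LRG1 were 0.165 (counting interval 0.118 to 0.225), 0.154 (0.112 to 0.207), 0.0586 (0.0343 to 0.0943) and 0.0290 (0.00779 to 0.0761). The decrease was deeper in KU-cHCC-004 and KU-cHCC-005 than in KU-cHCC-001 and KU-cHCC-002, and the counting intervals of those pairs do not overlap. The fitted log2 fold change was -3.41 ± 0.38, and it ran from -3.76 to -3.07 over 10 alternative settings.

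With toceranib LRG1 measured 21.6, 16.2, 15.1 and 6.44 CPM. It was higher than with DMSO in KU-cHCC-001 (ratio 1.68, counting interval 1.44 to 1.97), and in the other 3 lines the ratios were 0.944, 0.927 and 0.903 with intervals that include 1. The log2 fold change was 0.08 ± 0.34. The toceranib library of KU-cHCC-001, with the highest LRG1 and IL6 of all 16, also held CD74 at 321 CPM, against 0.28 to 5.23 CPM elsewhere. CD74 is 1 of 10 leukocyte markers, whose sum was 338 CPM there and 16.8 to 89.1 CPM in the other libraries, and PTPRC and CD3E were at 0. The sum of 8 endothelial markers was also highest in that library, at 281 CPM, against 6.00 to 134 CPM in the others. The part of these markers in the LRG1 and IL6 values was not tested.

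DPBS libraries held 9.13, 5.10, 7.69 and 5.11 CPM of LRG1. By group mean the order of LRG1 was toceranib (14.8 ± 6.27 CPM, SD, n = 4), DMSO (13.4 ± 4.55), DPBS (6.76 ± 1.995) and sorafenib (1.48 ± 1.103). Toceranib and DMSO did not differ beyond their spread, and DPBS and DMSO overlap at 7.13 to 9.13 CPM.

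**Figure D2:**
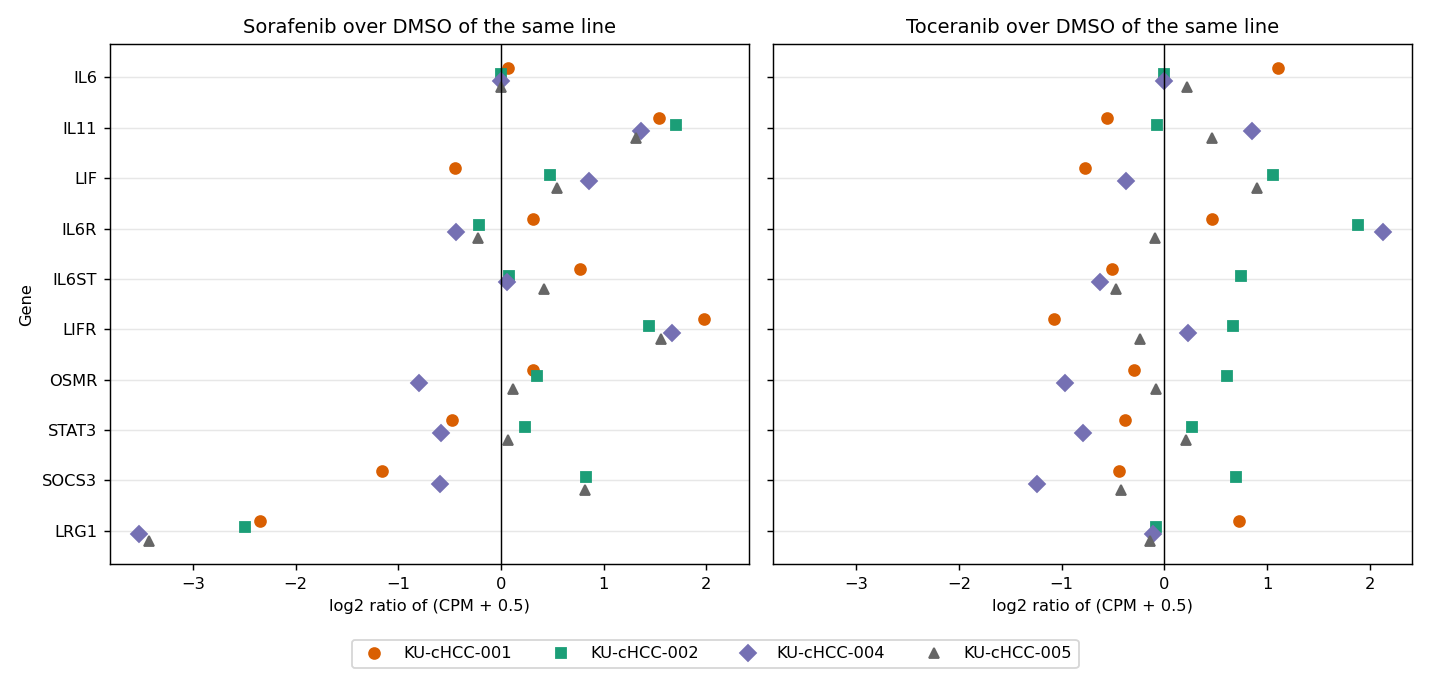
Log2 ratio of CPM + 0.5 (horizontal axis) for each gene (vertical axis), sorafenib over DMSO at left and toceranib over DMSO at right; each symbol is 1 line and 0 means no difference. With sorafenib all 4 lines lie at -3.53 to -2.35 for LRG1, at 1.32 to 1.71 for IL11 and at 1.44 to 1.98 for LIFR, while SOCS3 lies on both sides of 0; with toceranib no gene has all 4 lines clearly on 1 side.

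In the edgeR fit of sorafenib minus DMSO, 2 of the 9 fitted genes (IL11 and LIFR) were called higher, where 9.59% of all 14938 tested genes were, and 1 (LRG1) was called lower, where 10.1% were. Called means a Benjamini-Hochberg adjusted p under 0.05 over all tested genes. For toceranib minus DMSO, 0 of 9 were called in either direction, beside 4.31% higher and 3.15% lower among all genes. The 10 genes were chosen by these comparisons, which fixes such an outcome in part, so the counts are no evidence and nothing is read from them. The median log2 fold change of the 9 genes was -0.05 with sorafenib and -0.07 with toceranib, against -0.02 and -0.01 over all genes.

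The number past the threshold also moved with the setting. IL11 missed it without KU-cHCC-002, KU-cHCC-004 or KU-cHCC-005 and without the cell line as a block. LIFR missed it without the block and with all 16 libraries in the fit. IL6R with toceranib passed it under DESeq2 alone among 12 alternatives.

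Comparisons with DPBS did not define the 10 genes, but they are not independent either. Toceranib minus DPBS shares the toceranib libraries with the values that did, and DPBS minus DMSO shares the DMSO libraries. Both were fitted with edgeR on all 16 libraries, with the doubts on the DPBS labels given above.

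For toceranib minus DPBS, 0 of the 9 genes were called, as were 0% of 15515 genes in the higher and 0% in the lower direction. Over all genes, 1875 had an unadjusted p under 0.05 in edgeR, and DESeq2 called 267, none of them among the 9. LRG1 had the smallest adjusted p of the 9, at a log2 fold change of 0.99 ± 0.40 (adjusted p = 0.370). It was higher with toceranib than in the DPBS library of the same label for all 4 labels. With the DPBS library labelled 005 as the only one kept, it was 0.21 ± 0.61. For the other 8 genes the edgeR adjusted p ran from 0.568 (LIF, -0.55 ± 0.37) to 0.964 (OSMR, 0.05 ± 0.28).

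For DPBS minus DMSO, 0 of the 9 genes were called, where 2.91% of all genes were called higher and 1.72% lower. STAT3 gave a log2 fold change of -0.46 ± 0.19 (edgeR adjusted p = 0.154) and LRG1 one of -0.90 ± 0.40 (adjusted p = 0.190). LRG1 was lower in the DPBS than in the DMSO library of the same label for all 4 labels, but the DPBS libraries form 2 close pairs and may not stand for 4 lines. With the DPBS library labelled 005 alone the LRG1 value was -0.17 ± 0.60. LIF (0.78 ± 0.38, adjusted p = 0.219) and IL6R (1.19 ± 0.62, adjusted p = 0.258) came next, and the other 5 genes lay at 0.578 to 0.946.

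The other genes of the pathway were taken from 8 lists with 115 genes, of which 109 were in the tables under that symbol and 86 passed the filter. With sorafenib 11 of the 86 rose (12.8%) and 15 fell (17.4%), against the 9.59% and 10.1% of all genes given above. With toceranib, against DMSO, 1 rose (1.16%) and 5 fell (5.81%), beside 4.31% and 3.15% of all genes. Against DPBS, 0 of the 86 were called, as were 0% of all genes. The sorafenib counts were 2 higher and 3 lower without KU-cHCC-004, 2 and 4 without KU-cHCC-005, 6 and 5 without KU-cHCC-002, and 2 and 2 without the cell line as a block. Adjusted p-values below are from the same edgeR fits.

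Among other ligands, CTF1, CLCF1 and CNTF were testable and 0 of 3 were called with either drug. OSM, the ligand of OSMR, reached at most 0.37 CPM in any library. Of 4 tested receptors and sheddases, ADAM17 rose and IL11RA fell with sorafenib, where 9.59% of all genes rose and 10.1% fell. ADAM17, a protease that cleaves IL6R from the cell surface, went from 53.3, 50.4, 63.2 and 36.1 CPM with DMSO to 111, 96.7, 115 and 93.5 CPM (log2 fold change 1.04 ± 0.22, adjusted p = 0.00949). IL11RA, the receptor for IL-11, went from 1.42, 1.51, 2.66 and 3.76 CPM to 0.882, 0.797, 0.849 and 1.40 CPM (-1.20 ± 0.33, adjusted p = 0.0293). The ligand IL11 was thus higher and its receptor lower in the same 4 lines. The calls of ADAM17 and IL11RA were lost without KU-cHCC-004 or KU-cHCC-005, and both without the cell line as a block. That of IL11RA was also lost without KU-cHCC-002, without the filter on low counts and with all 16 libraries, and held in 4 of 10 alternatives.

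Of 10 tested JAK kinases, STAT factors and adaptors, 1 rose and 4 fell with sorafenib, where 9.59% of all genes rose and 10.1% fell. JAK2, a kinase bound to gp130, rose by 0.90 ± 0.20 on the log2 scale (adjusted p = 0.0125), from 18.7 to 75.0 CPM over the lines with DMSO to 37.6 to 119.7 CPM. Among those that fell were STAT6 (-1.05 ± 0.21), STAT5A (-0.96 ± 0.23) and STAT2 (-0.86 ± 0.24). STAT6 is known for interleukin-4 signalling, STAT5A for growth hormone and STAT2 for interferon. Without KU-cHCC-004 or without KU-cHCC-005 none of the 10 was called. With toceranib against DMSO 2 of the 10 fell, where 3.15% of all genes did, among them STAT6 (-0.87 ± 0.21, adjusted p = 0.0353). In DPBS minus DMSO, with no drug in either arm, 2 were called lower, where 1.72% of all genes were, among them STAT2 (-1.07).

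Of the 15 inhibitors of JAK-STAT signalling other than SOCS3, 0 were called with either drug in edgeR, while DESeq2 called 2 higher with sorafenib and 1 lower with toceranib. SOCS1, the closest relative of SOCS3 in function, measured 2.94, 0.96, 1.36 and 1.22 CPM with DMSO and 1.68, 6.83, 5.10 and 4.04 CPM with sorafenib. SOCS1 was chosen for its role after its values were seen. It was lower in KU-cHCC-001 and higher in the other 3 lines, whereas SOCS3 was lower in KU-cHCC-004 too.

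Few acute phase genes of the liver other than LRG1 were expressed: 15 of 20 were in the tables and 5 passed the filter. With sorafenib 2 of the 5 fell, where 10.1% of all genes did. In the same comparison the summed level of the hepatocyte markers was lower in 4 of 4 lines, at 12.3 to 60.9 CPM against 29.4 to 89.5 CPM with DMSO. Of the 4 hepatocyte markers tested, 0 were called. Of 10 cholangiocyte and progenitor markers, 3 were called lower, beside the same 10.1%. The part of these markers in the acute phase and LRG1 values was not tested. CFB, complement factor B, went from 11.8, 53.2, 361 and 7.30 CPM to 2.64, 16.5, 61.9 and 6.37 CPM (-1.85 ± 0.44, adjusted p = 0.0158), and its call was lost without KU-cHCC-001, KU-cHCC-002 or KU-cHCC-004. FGA, a fibrinogen chain below the 1 CPM set for naming and named after its values were seen, went from 2.10, 0, 0.57 and 1.82 CPM to 0.22, 0, 0 and 0.05 CPM. The call of FGA held in 5 of 9 alternatives, and not without KU-cHCC-004 or KU-cHCC-005. The 3 tested genes not called, also named after their values were seen, were CP (-0.19 ± 0.31), C3 (-0.85 ± 0.67) and FGL1 (-2.07 ± 0.77). The other 10 genes of the list in the tables did not pass the filter, and of these CRP, the C-reactive protein gene, and FGG, another fibrinogen chain, were at 0 in all 16 libraries.

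Of 23 other STAT3 target genes tested, 7 rose and 5 fell with sorafenib, beside the same 9.59% and 10.1% of all genes. KLF4, a transcription factor of epithelial differentiation, went from 7.55, 14.5, 12.7 and 38.2 CPM to 64.0, 35.2, 44.0 and 92.1 CPM (1.83 ± 0.32, adjusted p = 0.00451). VEGFA, the angiogenic growth factor, rose by 1.56 ± 0.30 (adjusted p = 0.00676). JUNB, an AP-1 factor, went from 125, 126, 281 and 103 CPM to 38.4, 61.1, 63.4 and 44.0 CPM (-1.55 ± 0.25, adjusted p = 0.00324), and FOS, another, fell by 1.62 ± 0.50 (adjusted p = 0.0446).

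The remaining 8 calls of that list are named after their values were seen. PIM3 (1.35), CEBPB (0.97), HIF1A (0.82), PIM1 (0.69) and ICAM1 (0.67) rose, and CEBPD (-1.52), IRF1 (-0.92) and MCL1 (-0.70) fell. JUNB and PIM3 were called in 10 of 10 alternative settings, KLF4 and CEBPD in 9 and VEGFA in 8. The others held less often: HIF1A and MCL1 in 6, FOS, CEBPB and IRF1 in 5, ICAM1 in 4 and PIM1 in 3. The list as a whole kept 2 genes higher and 2 lower without KU-cHCC-004, and likewise without KU-cHCC-005. Many of these genes also respond to other signals, and their response to STAT3 in these lines was not tested.

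**Figure D3:**
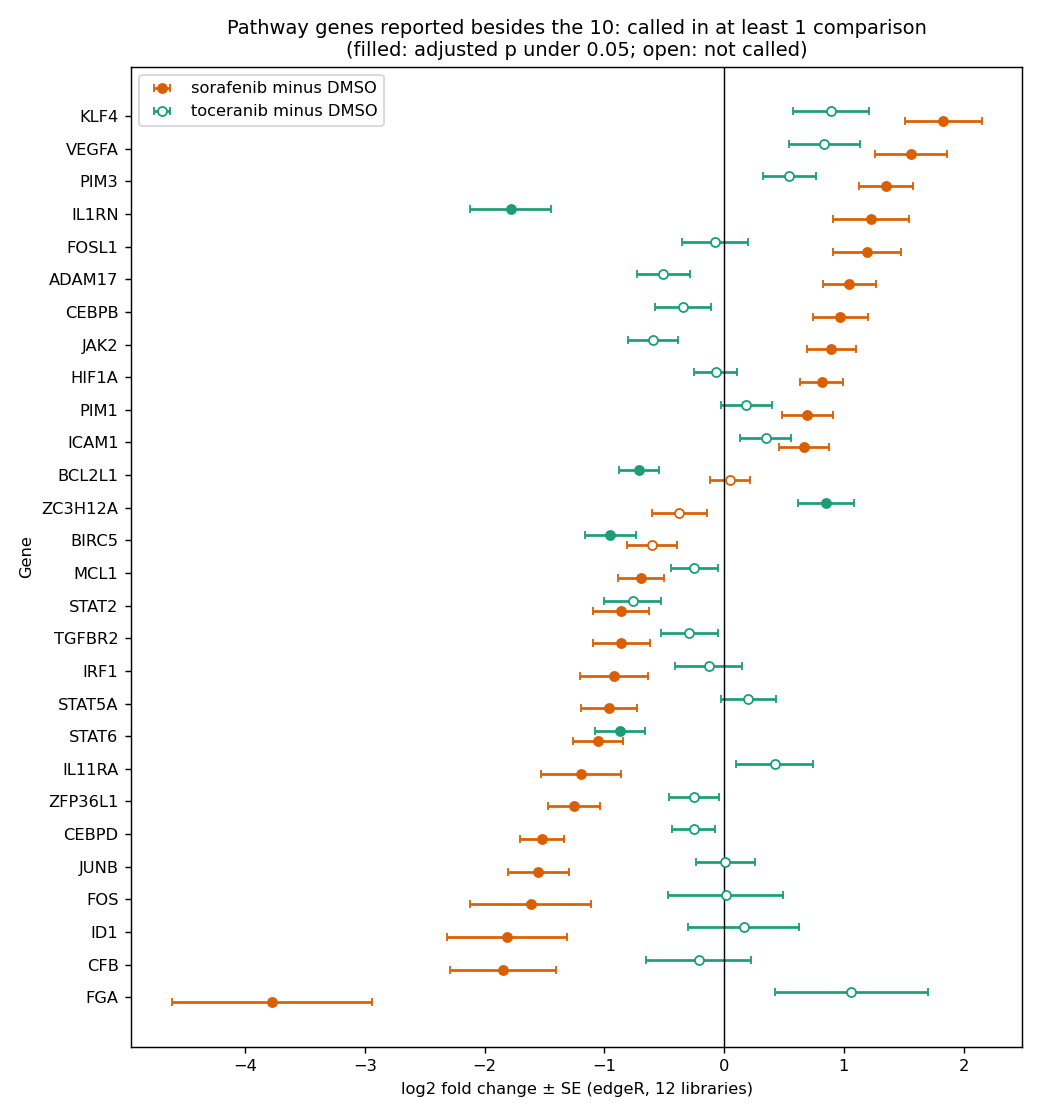
Log2 fold change ± SE (horizontal axis) of pathway genes outside the 10 that were called in at least 1 drug comparison and are reported here (vertical axis), sorafenib minus DMSO in orange and toceranib minus DMSO in green, from the edgeR fit of 12 libraries; filled points are called at an adjusted p under 0.05. Sorafenib values run from -3.78 (FGA) to 1.83 (KLF4), and STAT6 is filled and below 0 for both drugs.

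With toceranib against DMSO, 0 of the 23 tested STAT3 targets rose and 2 fell, beside 4.31% and 3.15% of all genes. The 2 were BIRC5 (-0.95 ± 0.21, adjusted p = 0.0290) and BCL2L1 (-0.71 ± 0.17, adjusted p = 0.0339), both inhibitors of apoptosis. BIRC5 was also called lower in DPBS minus DMSO (-0.84). Against DPBS, the vehicle of toceranib, 0 of the 23 were called, as were 0% of all genes. In that comparison BIRC5 gave -0.14 ± 0.21 and BCL2L1 -0.55 ± 0.26. Every toceranib call on the 86 genes was lost without the toceranib library labelled 005, where 1 acute phase gene was called lower instead, and 0 were called without those labelled 004 and 005. Likewise, 0 were called with KU-cHCC-002, KU-cHCC-004 or KU-cHCC-005 left out. The part of the mesenchymal markers in these calls was not tested.

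Of 15 tested cytokines and regulators known to act upstream of IL6, IL11 and LIF, 2 rose and 1 fell with sorafenib. Of all genes, 9.59% rose and 10.1% fell. Without KU-cHCC-004 or without KU-cHCC-005, 0 of the 15 rose. FOSL1, an AP-1 factor, went from 18.5, 61.7, 24.8 and 51.8 CPM to 109, 84.6, 43.7 and 107 CPM (1.19 ± 0.29, adjusted p = 0.0158). ZFP36L1, which destabilises AU-rich mRNAs, went from 387, 183, 470 and 195 CPM to 109.6, 121, 191 and 86.5 CPM (-1.25 ± 0.21, adjusted p = 0.00389). IL1RN, the interleukin-1 receptor antagonist, was near 0 in KU-cHCC-001. It rose with sorafenib (1.23 ± 0.32, adjusted p = 0.0223) and fell with toceranib (-1.78 ± 0.34, adjusted p = 0.0196), while the DPBS libraries held 2.67 to 3.43 CPM, close to the 2.63 to 3.38 CPM of the other 3 toceranib libraries. ZC3H12A, an RNase that degrades IL6 mRNA, rose with toceranib (0.85 ± 0.23, adjusted p = 0.0486), to 27.9 to 35.8 CPM, where the DPBS libraries held 28.2 to 31.7 CPM.

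LRG1 is known to act on TGF-beta signalling, and of 11 tested genes of that route 2 fell with sorafenib and 0 were called with toceranib. Of all genes, 10.1% fell with sorafenib, and 4.31% rose and 3.15% fell with toceranib. ID1, a target of the SMAD1 branch, went from 280, 23.8, 33.6 and 38.8 CPM, highest in KU-cHCC-001, to 15.6, 11.9, 20.1 and 10.2 CPM (-1.82 ± 0.50, adjusted p = 0.0279). TGFBR2, the type II receptor, fell by 0.86 ± 0.24 (adjusted p = 0.0281). ENG, a co-receptor of the endothelium, reached at most 0.25 CPM. The calls of ID1 and TGFBR2 were lost without KU-cHCC-002, KU-cHCC-004 or KU-cHCC-005 and without the cell line as a block. That of ID1 was also lost without the filter on low counts and with all 16 libraries. ID1 was called in 4 of 10 alternatives and TGFBR2 in 6.

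The genes whose pattern was most like that of LRG1 were ranked by the root mean square difference of log2(CPM + 0.5), each gene centred on its own mean, over the 12 DMSO, sorafenib and toceranib libraries and 14938 genes. Among the 5 nearest were HES4 (0.648), WDR6 (0.696), H2AX (0.698) and HJURP (0.714). The spread of LRG1 about its own mean was 1.56 on this scale, and the median distance of all genes was 1.66. The mean of HES4 was 11.4 CPM in DMSO, 0.919 in sorafenib, 9.27 in toceranib and 6.83 in DPBS libraries.

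For IL11 the nearest genes were PTPDC1 (0.321), DUSP7 (0.429), PRIMPOL (0.452), ZNF239 (0.456) and ABHD2 (0.470), where the spread of IL11 was 0.864 and the median distance 1.02. PTPDC1 averaged 2.45 CPM in DMSO, 5.55 in sorafenib, 2.31 in toceranib and 2.73 in DPBS libraries.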

How the data were processed

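The authors deposited raw counts per gene symbol, as whole numbers, for 16 RNA-seq libraries (4 lines, 4 treatments). TopHat is named per the submitters' processing notes. For the counter, strand setting, genome build and annotation nothing is given in the sources used here. Reads of overlapping or near-identical genes may therefore be shared, and coordinates are left out. Repeated symbols were summed (39954 entries, 39543 symbols). The 10 genes and all lists were chosen with earlier results of these data known.

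Drug minus DMSO was fitted with edgeR 4.0.16 in R 4.3.3 on 12 libraries without DPBS (14938 genes after filterByExpr, 6 residual degrees of freedom). DPBS comparisons used 16 libraries (15515 genes, 9 residual degrees of freedom). Both used TMM, robust quasi-likelihood tests and the cell line as block, because same-numbered libraries come from the same line by their labels. The pairing was checked by distance to the 4 DMSO libraries. All 4 sorafenib libraries were nearest to that of their own line, as were 3 of 4 toceranib and 1 of 4 DPBS libraries. The sorafenib libraries labelled 002, 004 and 005 lay closer to each other than to their own DMSO libraries, so this does not settle their pairing. The toceranib libraries labelled 002, 004 and 005 lay closer to DPBS or other toceranib libraries, so their pairing is in doubt. P-values were Benjamini-Hochberg adjusted over all genes tested and called under 0.05. The SE of an edgeR log2 fold change was derived from its test, as its absolute value divided by the square root of the F statistic. Per-line ratios are CPM ratios; on the log2 scale a pseudocount of 0.5 CPM was added. Counting intervals are exact binomial, at 95%.

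Besides the 10 genes, those named are called genes of the pathway lists with a mean of at least 1 CPM, up to 4 per list and drug comparison by size of change, and the 5 genes most like LRG1 and IL11. Exceptions are stated, and some genes that the rule names are not reported here. Alternatives were DESeq2 1.42.0, DESeq2 size factors, no filter, no block, other sets of libraries, each line left out, other pseudocounts and plain totals. An alternative was added after seeing the data: toceranib minus DMSO without the toceranib libraries labelled 004 and 005. Only the edgeR fit of sorafenib minus DMSO on 12 libraries was tested on simulated counts. Those counts held no differences between lines, a fixed spread and no doubtful labels. The simulation therefore does not bear on the other fits or on the doubts about the labels.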

Additional observations from a re-analysis of the deposited data

Results flagged for a closer look

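The LIFR level of KU-cHCC-001 with toceranib, 22.4 CPM, lay far from the 3.28 to 4.15 CPM of the other 3 lines. On the log2 scale its gap to the nearest line was 0.884 of the range of the 4 libraries, above Dixon's 95% critical value for 4 samples. By chance alone about 1 group in 20 is marked in this way.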

How the results depend on the processing

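Alternative values were set against the SD of the 4 per-line log2 ratios of the gene and drug, which reached 1.08 (IL6R with toceranib). For the 9 fitted genes, 197 alternative values of sorafenib or toceranib minus DMSO moved by less than this SD and 1 by more. That 1 was IL11 with toceranib, at -0.42 without the toceranib libraries labelled 004 and 005 (added after seeing the data). A move of LIFR with toceranib from -0.07 to -0.79 counted as less. Of the median ratios per line of the 10 genes, 58 moved by less and 2 by more. Signs also changed. With sorafenib OSMR kept its sign in 9 of 10 alternatives and SOCS3 in 8. With toceranib IL11, LIF, LIFR and LRG1 kept theirs in 10 of 12, and IL6ST, OSMR, STAT3 and SOCS3 in 11. The other fitted values of these genes kept their sign throughout. The counts of called genes depended on the setting, and the cause was not tested. For sorafenib minus DMSO (2935 genes), the count was 464 with no replicate block, 5053 with only the 8 libraries compared and 596 to 3906 with a line left out. For toceranib minus DMSO (1115), it was 2335 with DESeq2, 0 with no replicate block, 557 with all 16 libraries and 129 with 8. It was 1 to 3044 with a line or the toceranib library labelled 005 left out (66 for the latter), and 0 without those labelled 004 and 005. For toceranib minus DPBS (0), it was 7 without a filter, 267 with DESeq2 and 0 to 1 with a line or library left out. For DPBS minus DMSO (718), it was 343 without a filter, 2140 with DESeq2, 263 with no replicate block, 0 to 2007 with a line left out, and 4 without the DPBS libraries labelled 001, 002 and 004. That last setting keeps 1 DPBS library, 005, assumed to vary like the other groups, and this library too was nearest to the DMSO library of KU-cHCC-004. In the DPBS comparisons, 21 alternative folds of the 9 fitted genes changed sign, none of them called, and 150 did not. With no replicate block, toceranib minus DPBS was 0.74 for LIFR and 0.090 for SOCS3, and DPBS minus DMSO was -1.51 for LIFR. Without the DPBS libraries labelled 001, 002 and 004, toceranib minus DPBS was -0.30 for OSMR and -0.078 for STAT3, and DPBS minus DMSO was 0.063 for OSMR; LRG1 kept its sign, at 0.21 and -0.17. With a line or library left out, toceranib minus DPBS ran from -0.015 to 0.92 for IL11, -0.67 to 0.055 for IL6ST, -0.51 to 0.11 for LIFR, -0.12 to 0.16 for OSMR and -0.65 to 0.18 for SOCS3. DPBS minus DMSO ran from -0.95 to 0.16 for IL11, -0.12 to 0.41 for IL6ST, -0.57 to 0.79 for LIFR and -0.49 to 0.25 for SOCS3. Of the pathway genes called, 157 alternative folds lost the call, 201 kept it and 0 changed sign. Depth limits IL6, IL11 and IL6R most, with 0 to 3 counts in some libraries.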
